A study of Homo sapiens with 4 samples.

Results

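The replication-dependent histone genes were chosen by gene symbol, as H1-1 to H1-6 and every H2AC, H2BC, H3C or H4C symbol followed by a number, and 69 of the 28775 genes in the count table met the rule. They comprised 6 H1, 17 H2A, 18 H2B, 13 H3 and 15 H4 genes. Of these, 55 lay on chromosome 6, 13 on chromosome 1 and 1, H4C16, on chromosome 12. RNA-seq had been performed on HEK293T cells, a human embryonic kidney line, in 2 MORC2 knock-out (KO) and 2 wild-type (WT) samples. The KO samples were bulk populations and not clones, and each was made with Cas9 protein and a different guide RNA, labelled sgRNA 1 (KO 1) and sgRNA 2 (KO 2). The WT samples (WT 1 and WT 2) carried the unedited gene and were otherwise the same line, with no further treatment named for any sample. MORC2 itself, an ATPase of the MORC family that takes part in heterochromatin silencing, stood at 51.2 and 55.05 CPM (counts scaled to the size of each library) in KO 1 and KO 2 and at 86.2 and 87.7 CPM in WT 1 and WT 2, a log2 fold change of -0.71 (adjusted p = 0.000137 by edgeR's quasi-likelihood test). MORC2 RNA remained detectable in both edited populations.

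Replication-dependent histones package newly made DNA, and their genes are transcribed mainly in S phase. Their mRNAs are the exception among coding transcripts in that most end in a conserved stem-loop, bound by the stem-loop binding protein SLBP, and carry no poly-A tail. Some of these genes also give polyadenylated transcripts, and the libraries here were prepared with poly-A capture, so the counts do not measure the bulk of histone mRNA.

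The stem-loop could be read in the members' own transcripts. Among the GENCODE 29 transcripts of the 69 genes, 4 runs of 16 bases that open and close with 6 complementary bases around a 4-base loop were shared by 2 or more genes and together covered 29 genes. The runs are shown because they mark the usual end of these mRNAs, with the stem in capitals and T standing for U.
Run in 17 H2A, H2B and H3 genes: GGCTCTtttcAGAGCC
Run in 5 H4 genes: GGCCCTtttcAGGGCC
Run in 4 H2B and H3 genes: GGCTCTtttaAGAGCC
Run in 3 H4 genes: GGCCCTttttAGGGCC
No shared run was found in the remaining genes, H2BC12 and all 6 H1 genes among them. Some annotated transcripts were shorter than the counted models. That of H2BC12 held 317 distinct 65-base windows, while the gene was counted over 887 bases. The lack of a run here therefore does not show that a gene lacks the stem-loop. In 21 of the 29 genes at least 1 annotated transcript continued for more than 100 bases past the run, by 116 to 1917 bases, and 12 of those 21 had enough counts to be tested. The longer forms were not always part of the gene models used for counting. H2AC25 was counted over 510 bases while its GENCODE transcript has 895, and H2BC26 over 456 bases while its transcript has 2364. H2BC21 was counted over 2224 bases, close to the 2194 of its transcript. Levels per kilobase (kb) below refer to the counted models.

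The 69 genes took 4989, 4743, 4843 and 4512 of the 59803625, 64312514, 60331708 and 53970043 counts in KO 1, KO 2, WT 1 and WT 2. These are shares of 0.00834%, 0.00737%, 0.00803% and 0.00836%, so that KO 2 was the lowest library and KO 1 lay between the WT libraries. A count of 0 in 1 library allows up to 3 counts, or 0.0454 to 0.0564 CPM, and covers counting error only. Of the 69 genes, 6 (H2AC1, H2BC1, H3C8, H4C6, H4C7 and H4C13) had no count in any library, and 28, these 6 included, stayed under 10 counts in every library. H2AC1 and H2BC1 encode histones known from the testis, as does H1-6, which had 4 counts over the 4 libraries. After the filter on low counts 31 members were tested and 38 were not. H4C12, with 34 counts in all, was the lowest member inside the filter, and H3C12, with 36, the highest outside it.

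A few genes held most of the signal. H2BC12 on chromosome 6 (T2T-CHM13v2.0, chr6:27007108-27015674, minus strand, 2 exons), which encodes an H2B, had 33.7, 28.7, 31.8 and 35.6 CPM in KO 1, KO 2, WT 1 and WT 2. It made up 40.4% of the members' mean CPM, and its 4 values overlapped between the groups. H1-2, which encodes a linker histone (chr6:25923905-25924635, minus strand, 1 exon), followed with 8.35 and 7.39 CPM in the KO and 8.84 and 9.81 CPM in the WT libraries. H4C15, an H4 gene on chromosome 1 (chr1:148978230-148985305, minus strand, 3 exons), had 8.36, 6.66, 7.85 and 7.70 CPM in the same order. H2AC25, an H2A gene in a small cluster on the long arm of chromosome 1 (chr1:227645876-227646385, minus strand, 1 exon), had 8.21 and 7.08 CPM in the KO and 6.39 and 7.03 CPM in the WT libraries. Together with H2BC21 (3.45, 3.51, 3.14 and 3.21 CPM) these genes accounted for 73.7% of the members' CPM.

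On the scale of CPM per kb of exon, averaged over the 4 libraries, H2BC12 stood at 36.6, H2AC25 at 14.1, H1-2 at 11.8 and H4C15 at 4.18. H2BC12 lay above every other member in each library. H2AC25 lay above H1-2 in each library, although their ranges over the libraries overlapped. The next members were H2AC20 (3.08), H2BC5 (2.99), H2BC11 (2.75) and H2AC6 (2.57), whose per-library values overlapped one another. H3C10 (1.58) was the highest H3 gene, and the remaining members of the leading 12 were H1-4 (1.57), H2AC18 (1.54) and H2BC21 (1.496). From H3C10 to H2BC21 in that order the ranges over libraries overlapped.

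**Figure D1:**
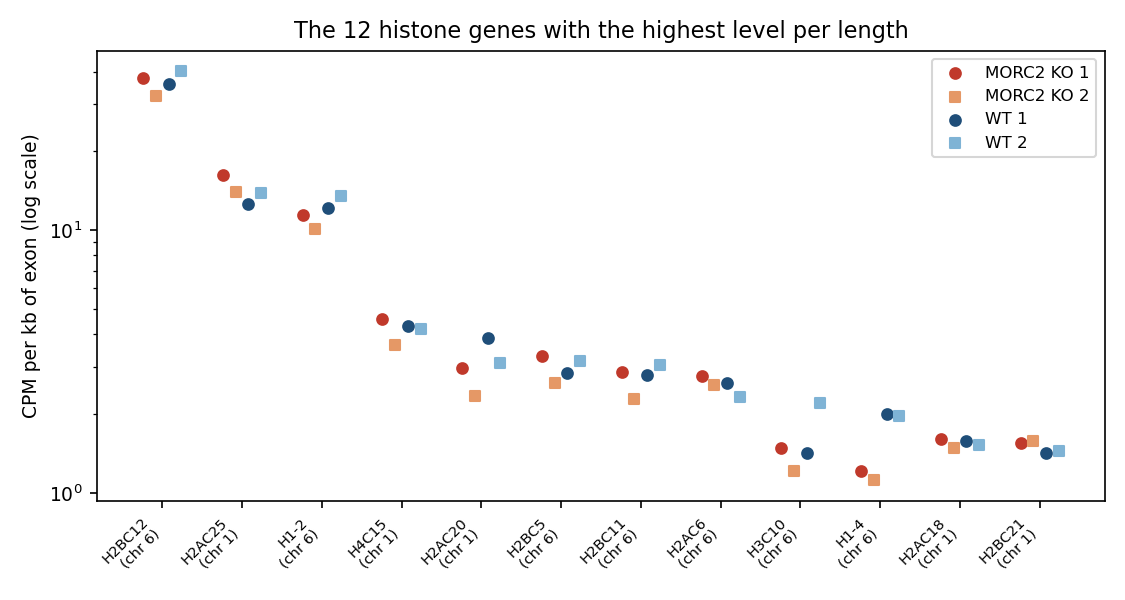
CPM per kb of exon (log axis) of the 12 members with the highest mean level, in each of the 4 libraries (1 point a library). H2BC12 lies above the other 11 in every library, H1-2, H1-4 and H2AC20 have both KO points below both WT points, and H2AC25 and H2BC21 have both above.

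Several members are near-copies whose reads cannot be assigned with certainty. Every 65-base window, the read length, of the H2AC18 transcript was also found in H2AC19, and 97% of the H2AC19 windows in H2AC18. H3C14 and H3C15 shared 100% of their windows. All windows of H4C14 occurred in H4C15, which shared 48.6% of its own with H4C14. In total, 24 of the 69 genes shared at least 1 such window with another member, and 9 shared more than 50%. These figures rest on annotated transcripts, some of which were shorter than the counted models. Multi-mapping reads had been counted, so the values of these pairs are uncertain individually. H2AC18 had 51, 52, 50 and 43 counts in KO 1, KO 2, WT 1 and WT 2, and H2AC19 had 46, 53, 34 and 41.

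No member passed the test between MORC2 KO and WT. By edgeR's quasi-likelihood test, with p-values adjusted over all 16675 genes by the Benjamini-Hochberg method, 0 of the 31 tested members had an adjusted p under 0.05, against 103 of all genes (0.618%), of which 98 were higher and 5 lower in KO. With loess offsets for GC content and length the split over all genes was 151 higher and 60 lower. DESeq2 also called 0 members. At an unadjusted p under 0.05, 5 members were lower in KO (16.1% of those tested, against 6.17% of all genes) and 0 were higher (against 8.14% of all genes). Both KO libraries lay below both WT libraries for 9 members (29%, against 23.4% of all genes) and above them for 3 (9.68%, against 24.1%). The median log2 fold change was -0.08 over the tested members and 0.0054 over all genes. In a fit without KO 1, the log2 fold changes of H2BC18, H1-4, H1-2 and H2BC12 were -1.26, -0.83, -0.35 and -0.24. That fit left KO 2, the library with the lowest histone share, as the only KO library. H2BC18 was called with GC and length offsets (adjusted p = 0.0480 by edgeR), where 211 of 15819 genes were called. Without a filter on low counts H2BC18 and H1-4, of 63 members, were called (adjusted p = 0.00726 and 0.0407 by edgeR). There 645 of 22728 genes were called.

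**Figure D2:**
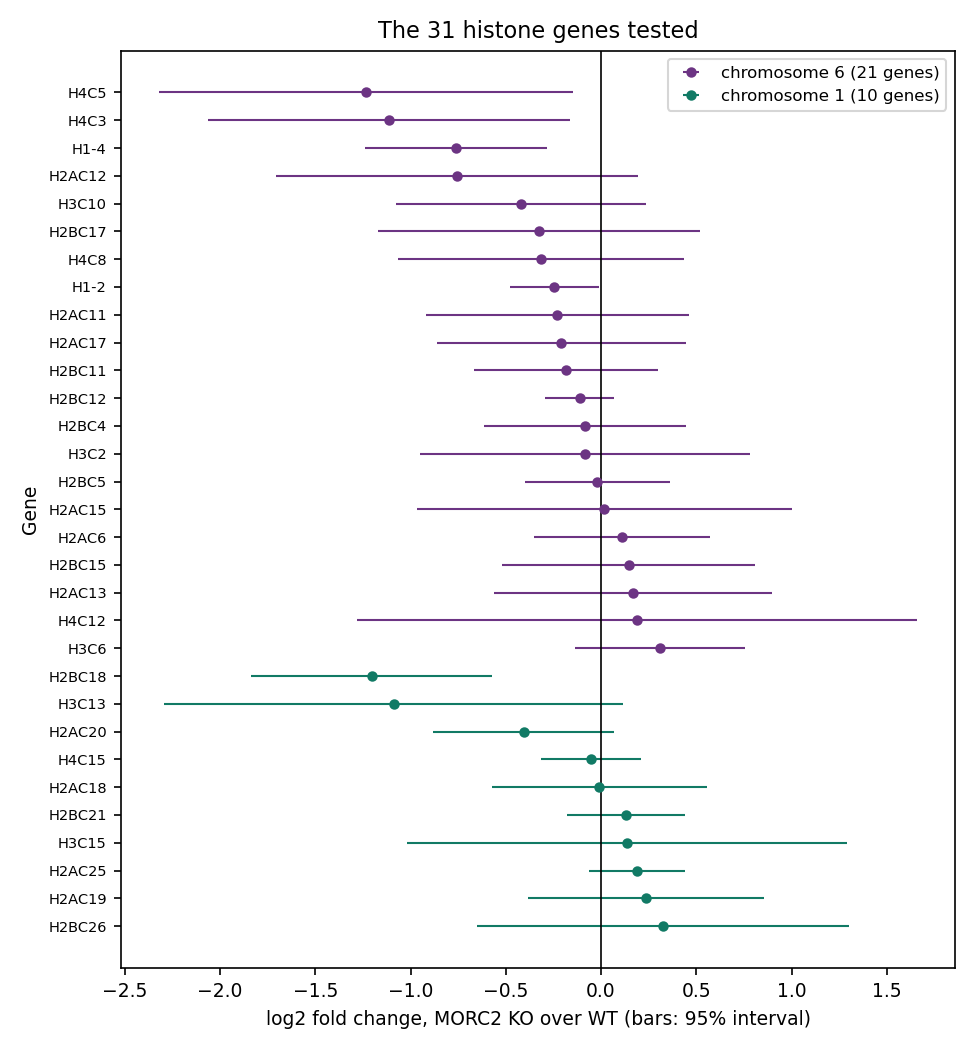
Fitted log2 fold change (MORC2 KO over WT) with its 95% interval for the 31 tested members, 21 on chromosome 6 and 10 on chromosome 1. The unadjusted intervals of H2BC18, H1-4, H4C3, H4C5 and H1-2 lie below 0 and no interval lies above 0.

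The smallest p belonged to H2BC18, an H2B gene at the edge of the chromosome 1 cluster (chr1:148906835-148936505, minus strand, 2 exons). It had 26 and 27 counts in the KO and 62 and 48 counts in the WT libraries, or 0.435 and 0.409 CPM against 1.04 and 0.902 CPM. The groups did not overlap, and the log2 fold change was -1.20 (SE 0.29), a fold of 0.434 with a 95% interval of 0.280 to 0.672, at an adjusted p of 0.112 by edgeR. In the model 9.59% of its exonic bases overlap FCGR1A, an Fc receptor gene, and reads in the overlap were not counted for either gene. Leaving out KO 1 gave a log2 fold change of -1.26, and leaving out WT 1 gave -1.10.

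Both tested linker histone genes had lower values in KO. H1-4 (chr6:26024465-26025251, plus strand, 1 exon) had 57 and 58 counts in the KO and 93 and 82 counts in the WT libraries, or 0.953 and 0.878 CPM against 1.56 and 1.54 CPM. Its groups did not overlap, with a log2 fold change of -0.76 (SE 0.22, adjusted p = 0.179 by edgeR). H1-2 had 499 and 488 counts in the KO and 526 and 522 counts in the WT libraries. The CPM values of H1-2 did not overlap either, but the gap was small, with a log2 fold change of -0.25 (SE 0.11, adjusted p = 0.330 by edgeR). Summed over the 6 H1 genes the level was 9.52 and 8.49 CPM in KO and 10.7 and 11.5 CPM in WT, and most of it came from H1-2. Without KO 1, H1-4 and H1-2 had log2 fold changes of -0.83 and -0.35, and without KO 2 -0.70 and -0.16.

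Apart from H2BC18, the core histone genes with the largest decreases had few counts. H4C5, an H4 gene, had 9 and 6 counts in KO and 18 and 14 in WT (log2 fold change -1.23, SE 0.50, adjusted p = 0.305 by edgeR). H4C3, another H4 gene, had 9 and 11 counts in KO and 20 and 19 in WT (-1.11, SE 0.44, adjusted p = 0.291 by edgeR). H3C13, which encodes an H3, had 4 and 9 counts in KO and 14 and 11 in WT (-1.09, SE 0.55, adjusted p = 0.388 by edgeR). In each of these genes both KO libraries lay below both WT libraries. H4C15, the H4 gene with most counts, did not share this pattern, with 500 and 440 counts in KO and 467 and 410 in WT and a log2 fold change of -0.05 (SE 0.12). The 14 other H4 genes summed to 1.42 and 1.17 CPM in KO and to 2.29 and 1.62 CPM in WT.

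The largest increases were smaller than these decreases. H2BC26, the H2B neighbour of H2AC25, had 19, 27, 24 and 9 counts in KO 1, KO 2, WT 1 and WT 2, so that WT 2 stood alone as low, and a log2 fold change of 0.32 (SE 0.45). H3C6, an H3 gene, had 103 and 104 counts in KO and 85 and 65 in WT (0.31, SE 0.21, adjusted p = 0.501 by edgeR). H2AC19 gave 0.24 (SE 0.29). H2AC25, with 491 and 468 counts in KO and 380 and 374 in WT, gave 0.19 (SE 0.12, adjusted p = 0.467 by edgeR). With 1 library left out H2AC25 ranged from 0.07 (without KO 1) to 0.30 (without KO 2), and H2AC19 from 0.03 (without WT 1) to 0.46 (without WT 2). The CPM of H3C6, H2AC25 and H2BC21 was higher in both KO than in both WT libraries.

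For the members with most counts the fit was precise enough to bound the difference. The fold of H2BC12 in KO over WT was 0.925 with a 95% interval of 0.816 to 1.05, that of H4C15 0.964 with 0.804 to 1.16, and that of H2AC25 1.14 with 0.958 to 1.36, all of which include 1. The interval of H1-2, at a fold of 0.844, was 0.718 to 0.991 and lay below 1 before adjustment, with the adjusted p of 0.330 by edgeR given above. H2BC12 depended on the KO library, with a log2 fold change of -0.24 without KO 1 and of 0.0016 without KO 2. For H4C12, H3C15 and H2BC26 the intervals reached from 0.411, 0.494 and 0.637 to 3.16, 2.44 and 2.46, so changes of that size were not detectable at this depth.

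The 2 chromosomal groups were then compared. The 55 genes on chromosome 6 summed to 58.7 and 50.3 CPM in KO 1 and KO 2 and to 58.4 and 61.9 CPM in WT 1 and WT 2, a ratio of means of 0.905. KO 2 was the low library and KO 1 lay between the WT libraries. Without H2BC12 the sums were 24.99 and 21.6 CPM against 26.6 and 26.3 CPM, so that both KO libraries were lower. The 13 genes on chromosome 1 summed to 24.6 and 21.4 CPM in KO and 22.9 and 22.8 CPM in WT, a ratio of 1.01 in which the KO libraries lay on both sides of the WT libraries. Within each library the chromosome 1 sum over the chromosome 6 sum was 0.419 and 0.427 in KO and 0.391 and 0.368 in WT, and without H2BC12 it was 0.985 and 0.993 in KO and 0.860 and 0.864 in WT. Either way the ratio was higher in both KO than in both WT libraries, by more than the spread within each group. No test was made of this ratio, which is a score over genes chosen with earlier results known. The chromosome 1 sum includes the separate pair H2AC25 and H2BC26, at 8.53 and 7.49 CPM in KO and 6.79 and 7.20 CPM in WT. The other 11 genes summed to 16.1 and 14.0 CPM in KO and to 16.1 and 15.6 CPM in WT. The ratio to the chromosome 6 sum was not computed for these 11 genes alone. The median log2 fold change was -0.18 over the 21 tested genes on chromosome 6 (15 below 0 and 6 above) and 0.06 over the 10 on chromosome 1 (5 below and 5 above). Without KO 1 these medians were -0.35 and -0.16, and without KO 2 the chromosome 6 median was -0.05.

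**Figure D3:**
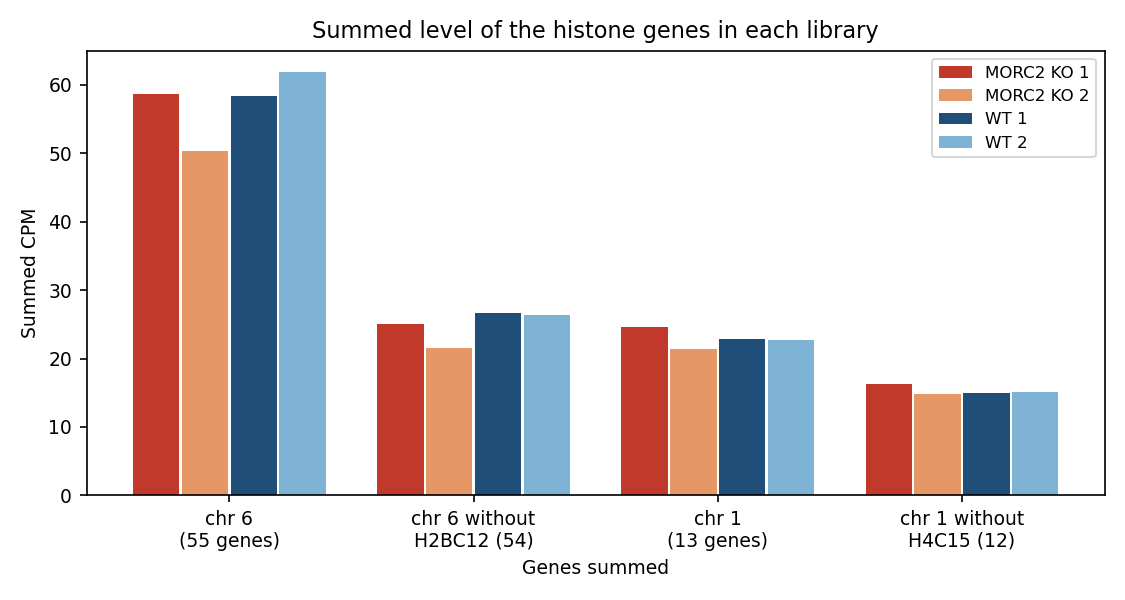
Summed CPM in each library (bars from 0) of the 55 genes on chromosome 6 and the 13 on chromosome 1, with and without the gene of highest level in each. KO 2 has the lowest bar in all 4 sums, and KO 1 the highest on chromosome 1.

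The chromosome 6 genes form separate blocks when genes more than 200 kb apart are split. The largest block holds 32 genes, from H1-1 to H4C8 (chr6:25882972-26153901), and summed to 18.05 and 16.04 CPM in KO and to 19.6 and 19.5 CPM in WT. The block with H2BC12 has 5 genes (chr6:27001131-27016378) and reached 35.9, 30.6, 34.4 and 38.0 CPM. The last block, with 16 genes (chr6:27677153-27763542), stayed at 4.75, 3.65, 4.39 and 4.38 CPM. On chromosome 1 the 11 genes of the main cluster (chr1:148906835-149012103) summed to 16.1, 14.0, 16.1 and 15.6 CPM, and the pair H2AC25 and H2BC26 to 8.53 and 7.49 CPM in KO and 6.79 and 7.20 CPM in WT. Between the first and the last histone gene of chromosome 6 lie 33 genes of other kinds, among them butyrophilin and zinc finger genes. Of the 19 tested 0 were called by edgeR, and their median log2 fold change was 0.09. At an unadjusted p under 0.05, 4 of the 19 were higher (ZNF391, LINC00240, HCG11 and LARRPM) and 0 lower. The shares over all genes were 8.14% higher and 6.17% lower.

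Many H2A and H2B genes sit head to head and share a promoter region. There were 12 such divergent pairs within 600 bases of each other, and 8 had counts for both genes in every library. H2BC12 exceeded its neighbour H2AC12, which lies 247 bases away, by a ratio of means of 49.0 in CPM per kb, with 28.7 to 65.1 over the libraries. The opposite held for H2AC25 and H2BC26, 229 bases apart, where the H2B level was 0.0506 of the H2A level (0.0269 to 0.0706). H2BC21 stood at 0.486 of H2AC20 (0.364 to 0.678), H2BC4 at 0.153 of H2AC6 (0.132 to 0.177), H2BC11 at 2.43 of H2AC11 (1.95 to 3.16) and H2BC15 at 2.43 of H2AC15 (1.79 to 3.20). H2BC17 and H2AC17 differed least, with a ratio of 0.866 and a range from 0.579 to 1.04 that includes equal levels. These ratios rest on the counted gene models, which left out the longer transcripts of H2BC26 and H2AC25 given above. H2AC6, H2AC11 and H2BC15 were counted over 519, 493 and 542 bases. Their longest coding transcripts held 1590, 2186 and 4067 distinct 65-base windows. The ratios also divide by unequal lengths, since H2BC21 was counted over 2224 bases and H2AC20 over 494. In counts H2BC21 was the higher of that pair, with 796 against 360 over the 4 libraries.

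**Figure D4:**
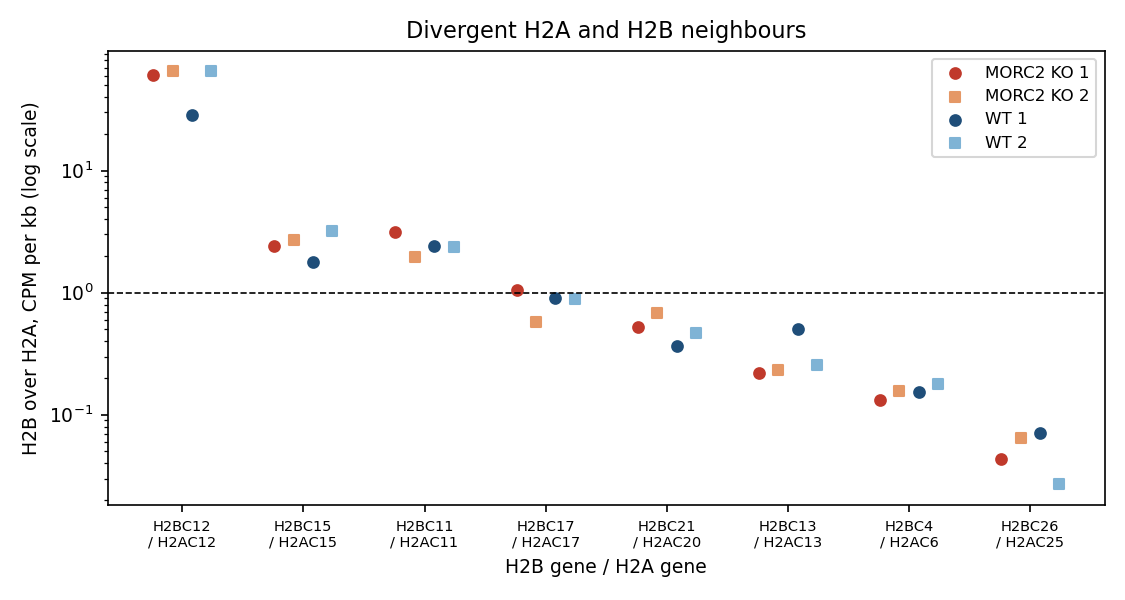
Ratio of the H2B to the H2A level (CPM per kb, log axis) in each library for the 8 divergent pairs with counts in every library, the dashed line marking equal levels. The H2BC12 pair lies between 28.7 and 65.1 and the H2BC26 pair between 0.0269 and 0.0706.

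The promoters of the leading gene of each histone family are given because the members differed far more in level among themselves than between KO and WT. The sequences are from RefSeq (GRCh38.p14), run from 250 bases before to 50 bases after the annotated start, and were matched for 64 of the 69 genes. Capitals mark every match, on either strand, to the TATA box (TATAAA), the octamer (ATTTGCAT) and the CCAAT box (CCAAT).
H2BC12, chr6:27146809-27147108, minus strand: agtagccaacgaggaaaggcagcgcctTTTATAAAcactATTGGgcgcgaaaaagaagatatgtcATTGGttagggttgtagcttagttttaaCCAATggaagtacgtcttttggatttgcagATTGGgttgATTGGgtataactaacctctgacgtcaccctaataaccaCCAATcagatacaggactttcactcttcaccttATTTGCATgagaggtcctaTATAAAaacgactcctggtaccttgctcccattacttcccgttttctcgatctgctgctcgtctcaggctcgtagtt
H2AC25, chr1:228457824-228458123, minus strand: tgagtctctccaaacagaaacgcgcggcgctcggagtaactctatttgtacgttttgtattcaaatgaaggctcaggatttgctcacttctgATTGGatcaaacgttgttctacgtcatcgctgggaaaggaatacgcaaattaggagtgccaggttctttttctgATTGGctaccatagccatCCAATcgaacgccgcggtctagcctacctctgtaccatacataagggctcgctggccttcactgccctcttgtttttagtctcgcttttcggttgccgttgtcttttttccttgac
H1-2, chr6:26056421-26056720, minus strand: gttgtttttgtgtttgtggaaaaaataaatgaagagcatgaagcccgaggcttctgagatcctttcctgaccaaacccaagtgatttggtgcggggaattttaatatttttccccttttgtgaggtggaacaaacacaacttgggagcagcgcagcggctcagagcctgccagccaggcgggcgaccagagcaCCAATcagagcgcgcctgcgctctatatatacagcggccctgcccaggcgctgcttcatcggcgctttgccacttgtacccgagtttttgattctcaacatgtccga
H4C15, chr1:149861110-149861409, minus strand: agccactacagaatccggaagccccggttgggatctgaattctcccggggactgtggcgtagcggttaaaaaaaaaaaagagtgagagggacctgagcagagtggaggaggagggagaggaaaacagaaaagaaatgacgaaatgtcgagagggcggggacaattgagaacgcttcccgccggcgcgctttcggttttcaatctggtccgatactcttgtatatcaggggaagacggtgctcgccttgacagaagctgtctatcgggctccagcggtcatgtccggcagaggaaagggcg
H3C10, chr6:27809801-27810100, plus strand: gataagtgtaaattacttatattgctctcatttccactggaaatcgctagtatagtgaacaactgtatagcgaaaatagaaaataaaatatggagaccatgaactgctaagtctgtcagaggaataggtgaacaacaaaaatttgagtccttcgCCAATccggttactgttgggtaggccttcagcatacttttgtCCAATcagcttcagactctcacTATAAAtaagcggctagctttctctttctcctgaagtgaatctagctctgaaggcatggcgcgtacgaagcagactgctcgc
H2BC12 held all of the motifs, with an octamer that starts 46 bases and a TATA box that starts 27 bases before the transcript start. H3C10 held a TATA box 32 bases before the start, with CCAAT boxes at 54 and 96 bases. H2AC25 and H1-2 held only CCAAT matches, and these letters did not occur in the window of H4C15. Over the 64 promoters the TATA box was found in 65.6%, the octamer in 40.6% and the CCAAT box in 84.4%. The shares among the promoters of all 27305 genes listed were 11.95%, 1.80% and 35.7%. The octamer was found in 11 of 16 H2A and 14 of 18 H2B promoters, in 1 of 11 H3 and in 0 of 6 H1 and 13 H4 promoters. Windows reached 250 bases upstream and both strands were searched, so those of divergent H2A and H2B neighbours shared bases. The same match could count for both genes, and these counts and shares do not rest on independent promoters.

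RNAs that carry no poly-A tail were measured beside the histone genes because the libraries were poly-A captured. Of 19 such RNAs, small nuclear, 7SK, 7SL, RNase P, RNase MRP and telomerase RNAs among them, 9 were tested. All 9 had a negative log2 fold change, 3 at an unadjusted p under 0.05 and 0 called by edgeR, with a median of -0.48. Their summed level was 14.8 and 10.9 CPM in KO and 18.8 and 18.1 CPM in WT, so that KO 2 was lowest, as for the histone genes. RN7SK, the RNA that holds P-TEFb inactive, had 409 and 290 counts in KO and 552 and 499 in WT (-0.74, adjusted p = 0.0776 by edgeR), RPPH1 8 and 6 against 15 and 14 (-1.19, adjusted p = 0.321), and RN7SL1 101 and 82 against 130 and 100 (-0.48, adjusted p = 0.331). The part of poly-A capture in the lower histone values was not tested.

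**Figure D5:**
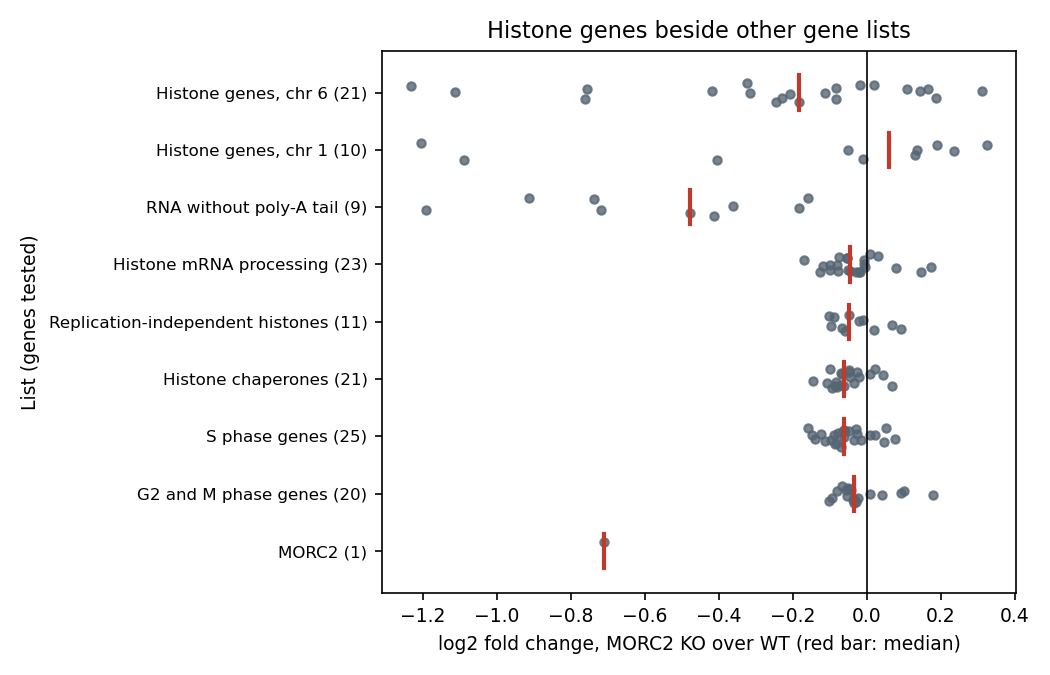
Log2 fold change (MORC2 KO over WT) of each tested gene, with the median as a red bar, for the histone genes of both chromosomes and for the other lists. The chromosome 6 median is -0.18, the median of RNAs without a poly-A tail is -0.48, and the 5 lists between them and MORC2 have medians from -0.06 to -0.04.

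None of the genes that make and handle histone mRNA passed the test by edgeR. All 23 genes for the processing and regulation of replication-dependent histone mRNA were tested, and 0 were called, 1 higher and 0 lower at an unadjusted p under 0.05, with a median of -0.05. SLBP had 135 and 127 CPM in KO and 136 and 140 CPM in WT (-0.07, adjusted p = 0.576 by edgeR). The smallest p values of the list were those of the exonuclease gene XRN1 (0.17, adjusted p = 0.291 by edgeR), the kinase gene CDK2 (-0.13, adjusted p = 0.385) and SRRT (-0.12, adjusted p = 0.409), whose product ARS2 binds the cap-binding complex. Most replication-independent histones have polyadenylated mRNAs and are made throughout the cell cycle. Of the 14 genes listed for them 11 were tested, with 0 called, 0 at an unadjusted p under 0.05 and a median of -0.05. All 14 summed to 2527 and 2423 CPM in KO and to 2494 and 2550 CPM in WT. H3-3B had the smallest p (-0.10, adjusted p = 0.476 by edgeR), with MACROH2A2 at -0.09 (adjusted p = 0.487).

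No histone chaperone or cell cycle gene of the lists passed the test either. Of 21 chaperone genes tested 0 were called and 1, CABIN1, was lower at an unadjusted p under 0.05 (-0.15, adjusted p = 0.308 by edgeR), ahead of HIRA (-0.10) and SUPT16H (-0.11), with a median of -0.06. Of 25 S phase genes 0 were called, and FEN1 (-0.15), RRM2 (-0.16) and TYMS (-0.14), of DNA replication and nucleotide supply, were lower at an unadjusted p under 0.05 (adjusted p = 0.295, 0.302 and 0.314 by edgeR), with a median of -0.06. Of 20 G2 and M phase genes 0 were called, 1, HMMR, was higher at an unadjusted p under 0.05 (0.18, adjusted p = 0.212 by edgeR), KIF20A (-0.10) and UBE2C (-0.10) came next, and the median was -0.04. Whether the share of cells in S phase differed was not tested. In bulk samples a lower share of such cells and less histone RNA per cell cannot be told apart.

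All 9 markers of the HEK293T line were detected and tested, 0 were called, 1 (NEFM, 0.44) was higher at an unadjusted p under 0.05, and they summed to 771 to 816 CPM. Markers of blood cells, fibroblasts and hepatocytes summed to 4.86 to 5.78 CPM over 9 genes, of which 5 were tested and 0 called, while PTPRC, CD3E, DCN and APOA2 had at most 2 counts in any library.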

How the data were processed

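Poly-A captured RNA of 4 HEK293T samples, 2 MORC2 KO and 2 WT, was sequenced as 65-base read pairs. The authors aligned the reads with Subread (2.0.6) to T2T-CHM13v2.0 and deposited raw gene counts from featureCounts, made per the file headers with RefSeq gene models, multi-mapping reads included, no strand setting and reads over 2 genes left out. Library totals were 53970043 to 64312514 counts. Symbols were matched by Entrez ID through a RefSeq table (GRCh38.p14) for 28763 of 28775 genes, and 0 columns belonged to other samples. KO and WT were compared over all genes with edgeR (4.0.16, R 4.3.3) by the quasi-likelihood F test in its legacy form, after filterByExpr (16675 genes) and TMM scaling (factors 0.986 to 1.03), with Benjamini-Hochberg adjusted p under 0.05 as the threshold and 95% intervals from the fitted errors. The pipeline was tested on simulated counts. WT replicates are separate samples by label, and p-values measure the spread between these samples, which may be technical. Alternatives were DESeq2 (1.42.0), the newer edgeR form, other scalings, offsets and filters, a replicate block and each library left out. The histone genes and the other gene lists were chosen with earlier results of these data known. Named were the 12 members with the highest mean CPM per kb, every called member, the 6 with the smallest p, the 4 with the largest increase and the 4 with the largest decrease, and for other lists the 3 genes with the smallest p, of which 1 is not reported here. Transcripts were from GENCODE 29 and promoters from RefSeq, used for sequence only. Protein sequences were not used here.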

Additional observations from a re-analysis of the deposited data

How the results depend on the processing

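No member was called higher under any of the 15 alternatives. Members called lower were 0 with DESeq2, the newer edgeR form, both other scalings, the abundance offsets, the minimum of 10 counts and the threshold of 0.10, but 1 (H2BC18) with GC content and length offsets, 2 (H2BC18 and H1-4) with no filter on low counts and 0 to 4 with 1 library left out, the 4 arising without KO replicate 1. A lone KO or WT library was then assumed to vary like the other group. Over all genes the calls were 211 with GC and length offsets, 645 with no filter, 162 at the threshold of 0.10 and 102 to 3514 with 1 library left out. The median on chromosome 6 ranged from -0.353 to -0.0469 with 1 library left out, that on chromosome 1 from -0.158 to 0.123, and it was -0.0638 with abundance offsets. The chromosome 1 ratio of sums ranged from 0.940 to 1.08. The causes of these shifts were not tested.

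Same-numbered KO and WT libraries did not deviate together (correlation of deviations -0.12), so the numbers do not pair the samples. With the replicate block 1 member, H2BC18 (adjusted p = 0.0344 by edgeR), and 279 genes were called. With the crossed block, chosen after seeing the data, 2 members and 1712 genes were called.

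Of the values of the named genes under the alternatives, 258 kept their direction and side of the threshold, 10 passed it in the same direction and 10 changed sign, none of these called. With library size alone H2BC5 was at 0.0192 and H2AC18 at 0.0299, and with abundance offsets H2AC6 was at -0.0094. With 1 library left out, log2 fold changes ranged from -0.24 to 0.0016 for H2BC12, -0.24 to 0.11 for H4C15, -0.21 to 0.15 for H2BC5, -0.0804 to 0.05001 for H2AC18 and -0.15 to 1.10 for H2BC26. Of the 69 members 28 stayed under 10 counts in every library, and their changes could not be seen at this depth.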
